A study of Mus musculus with 6 samples.

Results

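Chemokine ligands are small secreted proteins, named by the spacing of their conserved cysteines (CXC, CC, CX3C and XC), that direct the migration of cells carrying the matching receptor. The ligands measured here were the genes on the array whose names follow these family names (Cxcl, Ccl, Cx3cl1 and Xcl1). They comprised 35 of 34298 gene names, read by 48 probes on 57 spots, and each gene was represented by its brightest probe, judged by the mean of all 6 arrays. Gene expression was compared between esophagus and stomach epithelial organoids, which are 3D cultures grown from primary epithelium, and the comparison asked which ligands separate the squamous from the columnar epithelium. The labels give the cultures of both tissues the mouse numbers 1, 2 and 4, with 1 culture of each tissue per number and hence 3 arrays per tissue. All cultures were labelled as controls at passage 0, and all were harvested on day 8 except the stomach culture of mouse 4, which was harvested on day 7. The labels give no strain, sex or age, and the general animal methods list wild-type C57BL/6 females beside reporter strains without saying which gave these cultures. Stomach cultures were started from glands of the corpus and received WNT3A, R-spondin1 and gastrin, whereas esophagus cultures were started from a strained cell suspension of minced, enzyme-digested esophagus, with no separate step to remove other cell types described, and received forskolin without WNT3A and R-spondin1, so that tissue and medium cannot be told apart. Both media contained EGF, noggin, FGF-10 and inhibitors of the TGF-beta receptor and of ROCK.

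As background, epithelia use these ligands in different ways. Inflammatory ligands such as Ccl2 and the CXC ligands with an ELR motif are switched on by tumour necrosis factor, interleukins and microbial products through the transcription factor NF-kB, and draw monocytes and neutrophils. Cxcl9, Cxcl10 and Cxcl11 are classical interferon-induced ligands. Homeostatic ligands such as Ccl25, Ccl27a, Ccl28, Cxcl14 and Cxcl17 are made by particular epithelia without injury, and Cx3cl1 and Cxcl16 are anchored in the membrane and released by proteases.

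Values are normalized log2 intensities, so that 1 unit is a doubling of signal, and differences (log2 fold changes) are esophagus minus stomach. Between 45.5 and 51.1% of the non-control spots of an array were well above background, which is the scanner software's own test, and no spot was saturated. A gene said to be not well above background in either tissue failed that test on each of its 6 arrays. The esophagus array of mouse 4 was on slide 2, and the other 5 arrays were on slide 1. The organoid labels were checked on marker genes. Krt5, Krt13 and Krt14 (squamous keratins) were higher in esophagus, while all 4 columnar and all 8 gastric gland markers were higher in stomach. The brightest probe of Trp63, a squamous factor, went the other way (log2 fold change −1.22, adjusted p = 0.0249). Of 12 leukocyte markers, 6 were well above background on every array of both tissues (Cd3e, Cd68, Ly6g, Csf1r, Itgam and Cd14), while Ptprc, Itgax, Adgre1, Cd52 and Laptm5 were not so in either tissue. Itgam (log2 fold change −2.62) and Cd14 (−3.51) were called higher in stomach, and none was called higher in esophagus. The mean log2 value over the 12 leukocyte genes, those not above background included, ran from 6.95 to 7.40 in esophagus and from 7.52 to 7.70 in stomach. No fibroblast (8) or smooth muscle (3) marker was well above background throughout at least 1 tissue, and none was called. Of 4 endothelial markers, Kdr and Pecam1 were well above background on every array of both tissues, and none was called. In these bulk samples, fewer cells of a type and less RNA per cell cannot be told apart.

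A difference was called at an adjusted p under 0.05 over all 55681 probes. Of the 35 ligands, 6 were called (17.1%), against 12.2% of all probes. Ccl2, Cxcl14 and Ccl6 were higher in esophagus, and 5.94% of all probes were called in that direction. Cxcl17, Ccl9 and Cxcl11 were higher in stomach, where 6.22% of all probes were called. At an unadjusted p under 0.05, 11 of the 35 ligands passed, against 23.9% of all probes. The arrays of the tissues did not overlap for 15 ligands (42.9%), 10 with esophagus above and 5 with stomach above, against 28.6% of 55641 probes with a value on every array. Among the 15 were Ccl3, Ccl8 and Ccl11 (esophagus above) and Ccl20 and Cxcl9 (stomach above), which were not well above background on any array. Their gaps between the tissues were only 0.03 to 0.14 units. The median log2 fold change was 0.24 over the ligands and 0.02 over all probes, and the median absolute log2 fold change was 0.32 and 0.22, respectively. In these comparisons each ligand counts by its brightest probe, whereas the values over all probes include every probe of a gene, so the units differ. With the probes of a gene averaged, 3 ligands were higher in esophagus (7.1% of all genes) and 2 in stomach (7.56%). Of the 35 ligands, 15 were well above background throughout at least 1 tissue, and 7 of these on all 6 arrays. Another 6 were above background on some arrays only, and 14 on no array. The calls for Ccl2, Cxcl14, Ccl6 and Cxcl17 held in each of 14 distinct alternative analyses of the values, the model or the arrays used, whereas the calls for Ccl9 and Cxcl11 did not. The alternative restricted to probes well above background kept Ccl2, Cxcl14, Ccl6 and Cxcl17 only through the tissue where they were high. Averaging the probes of a gene left their values unchanged, since each had a single probe. Neither alternative is therefore a check on these calls.

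**Figure D1:**
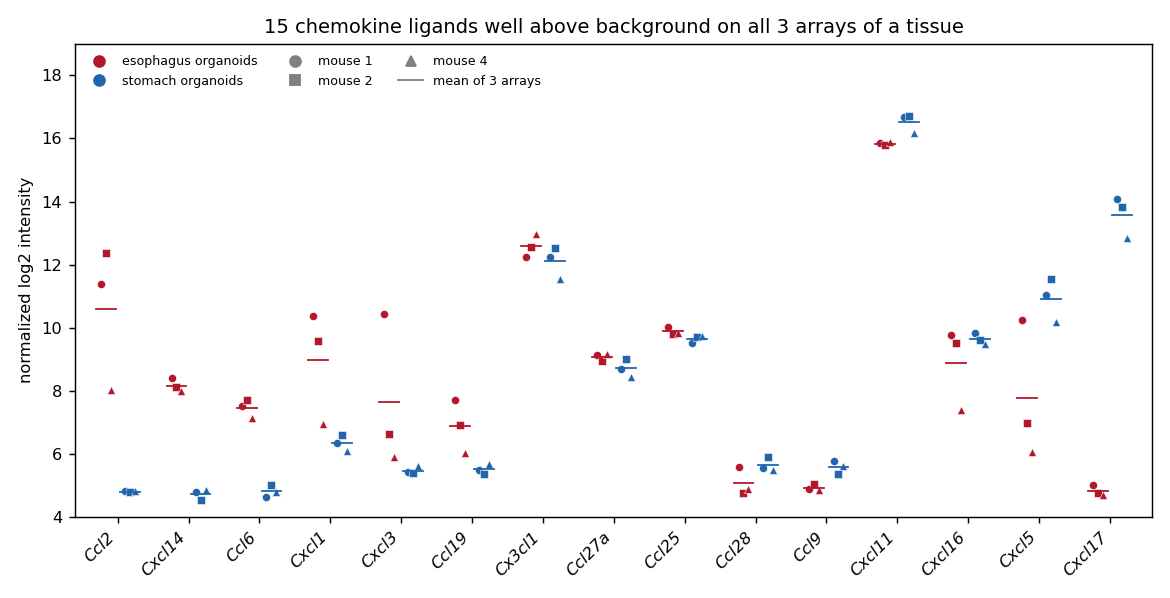
Normalized log2 intensity (y axis) of the 15 ligands well above background throughout at least 1 tissue, ordered by log2 fold change, with 1 point per array, a marker shape per mouse and a line at the mean of 3 arrays. Ccl2, Cxcl14 and Ccl6 lie apart on the esophagus side and Cxcl17 on the stomach side, while the esophagus points of Ccl2, Cxcl1, Cxcl3, Cxcl5 and Cxcl16 spread over 2.40 to 4.54 units.

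**Figure D2:**
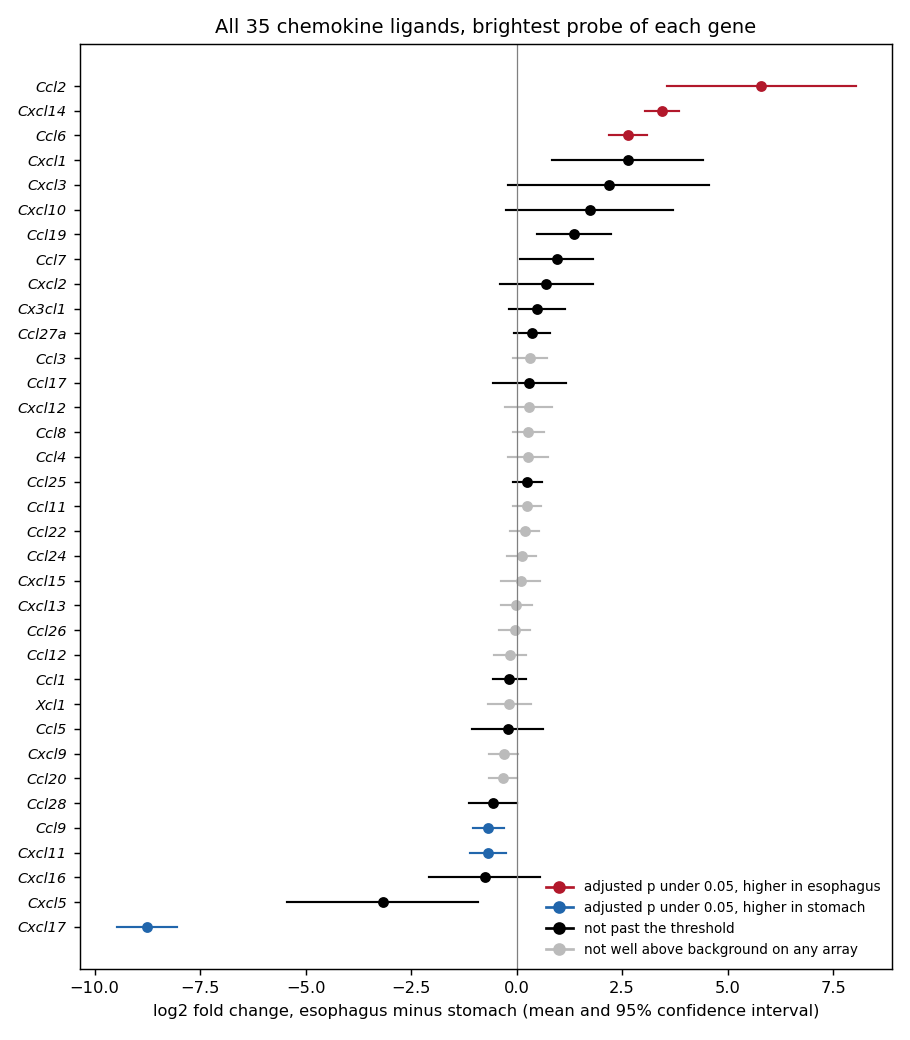
Log2 fold change (x axis, esophagus minus stomach) with its 95% confidence interval for all 35 ligands, coloured by call. The range runs from 5.80 for Ccl2 to −8.76 for Cxcl17, and the 14 ligands not well above background in either tissue lie between −0.32 and 0.32.

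The sequences just upstream of the RefSeq start sites show what these genes carry next to their starts. The promoter table (build GRCm38.p6) held windows for 24 of the 35 ligands, and Ccl2, Cxcl5, Cxcl11, Cxcl16 and Cxcl17 were among the 11 not matched. Letters of 3 motifs were searched on both strands in the 250 bases before the start, namely GGGANNNNCC (NF-kB-like), GAAANNGAAA (like an interferon-stimulated response element) and TGANTCA (AP-1-like), where N is any base. The NF-kB-like letters were found before 11 of the 24 ligands and in 17.6% of all 32851 windows, the interferon-type letters before 3 ligands and in 2.98% of windows, and the AP-1-like letters before 3 ligands and in 6.75% of windows. The neutrophil-attracting ligands Cxcl1, Cxcl2 and Cxcl3 are shown over the last 120 bases before the start because each holds the same NF-kB-like run (GGGAATTTCC) within 100 bases of it, at −71, −97 and −73. Capitals mark matches, and overlapping matches on the 2 strands run together.
Cxcl1 (chr5:90891125-90891244, plus strand): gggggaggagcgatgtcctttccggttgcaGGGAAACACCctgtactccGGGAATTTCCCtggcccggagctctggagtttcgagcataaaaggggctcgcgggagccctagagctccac
Cxcl2 (chr5:90903779-90903898, plus strand): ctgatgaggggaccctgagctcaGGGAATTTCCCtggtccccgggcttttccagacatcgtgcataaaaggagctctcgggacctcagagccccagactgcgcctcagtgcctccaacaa
Cxcl3 (chr5:90785981-90786100, plus strand): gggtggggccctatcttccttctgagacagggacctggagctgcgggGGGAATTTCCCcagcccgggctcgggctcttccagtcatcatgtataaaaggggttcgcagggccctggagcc

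The interferon-inducible ligand Cxcl10 is shown over all 250 bases because its window held matches to all 3 motifs, with the interferon-type match at −213, NF-kB-like matches at −159 and −103 and the AP-1-like match at −74.
Cxcl10 (chr5:92348890-92349139, minus strand): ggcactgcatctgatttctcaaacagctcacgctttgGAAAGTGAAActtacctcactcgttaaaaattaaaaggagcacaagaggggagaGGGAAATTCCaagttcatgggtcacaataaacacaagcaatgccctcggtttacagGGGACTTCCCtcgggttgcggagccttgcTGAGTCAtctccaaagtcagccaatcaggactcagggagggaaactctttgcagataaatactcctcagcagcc

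Of the called ligands, 3 had windows. Cxcl14 held an interferon-type match at −172 and Ccl9 an AP-1-like match at −53, and none of the letters searched was found before Ccl6.
Cxcl14 (chr13:56296552-56296801, minus strand): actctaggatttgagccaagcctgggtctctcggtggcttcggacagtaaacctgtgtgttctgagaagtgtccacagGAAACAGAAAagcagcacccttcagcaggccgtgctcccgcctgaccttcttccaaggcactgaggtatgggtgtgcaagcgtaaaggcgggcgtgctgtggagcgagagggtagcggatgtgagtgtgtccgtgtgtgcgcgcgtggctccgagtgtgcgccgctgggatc
Ccl9 (chr11:83578637-83578756, minus strand): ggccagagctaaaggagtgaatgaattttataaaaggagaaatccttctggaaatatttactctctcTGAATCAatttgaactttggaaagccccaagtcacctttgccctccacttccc
Ccl6 (chr11:83593088-83593207, minus strand): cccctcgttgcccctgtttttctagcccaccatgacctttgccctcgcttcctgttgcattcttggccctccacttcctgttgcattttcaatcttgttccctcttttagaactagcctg
NF-kB-like letters were also found before Ccl27a (well above background on all 6 arrays), Ccl19 (on 3 esophagus and 2 stomach arrays) and Ccl1 (on 2 stomach arrays only). The remaining ligands with such letters were Ccl20, Ccl22, Cxcl9 and Cxcl13, which were not well above background in either tissue. A match describes letters only and is not a binding site.

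Cxcl17, a mucosal ligand that attracts myeloid cells, showed the largest difference among the ligands. Its probe lies at chr7:26185079-26185138 (mm9, minus strand). The stomach arrays read 14.08, 13.81 and 12.83 and the esophagus arrays 5.0, 4.76 and 4.68, for mice 1, 2 and 4. The tissues did not overlap, and no esophagus array was well above background. The log2 fold change was −8.76 ± 0.31 (SE, n = 3 arrays per tissue, limma, adjusted p = 1.47e-06), and the signal was at least 392-fold higher in stomach. This bound sets the stomach mean against the lowest signal that counted as well above background on each esophagus array, or the probe's own value where higher, and the same rule gives every bound that follows. All bounds are for the deposited values and move with the background correction. Over the alternatives the log2 fold change of Cxcl17 ran from −11.54 (75th percentile scaling) to −7.50 (a background offset of 50), the latter a smaller change than the bound. Gpr35, which has been proposed as a receptor for Cxcl17, read 6.28, 6.44 and 5.50 in stomach and 5.0, 5.56 and 5.07 in esophagus, with a log2 fold change of −0.86 ± 0.28 (adjusted p = 0.0959).

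Cxcl14, a ligand made constitutively by squamous epithelium and skin, was higher in esophagus. Its probe lies at chr13:56390078-56390137 (mm9, minus strand). The esophagus arrays read 8.41, 8.10 and 7.98 and the stomach arrays 4.78, 4.52 and 4.85. The esophagus values were tight (SD 0.22, n = 3), and no stomach array was well above background. Esophagus exceeded stomach by a log2 fold change of 3.45 ± 0.17 (adjusted p = 1.02e-05), at least 9.87-fold on the deposited values. It was 2.40 with the offset of 50, below that bound, and 6.36 with the 75th percentile scaling. Cxcl12 and Cxcl13, homeostatic ligands made mainly by stromal cells, were not well above background in either tissue.

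Cxcl16, the membrane-anchored ligand of Cxcr6, read 9.77, 9.5 and 7.37 in esophagus and 9.83, 9.59 and 9.49 in stomach. Only the esophagus array of mouse 4 was low, and the log2 fold change of −0.76 ± 0.57 was not called (95% interval −2.08 to 0.56, adjusted p = 0.5). With the arrays of slide 1 alone, the log2 fold change was −0.01 (adjusted p = 0.992). Cxcr6 itself read 6.72, 5.37 and 6.78 in esophagus and 7.23, 6.96 and 6.69 in stomach, and was not called (adjusted p = 0.344).

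Cx3cl1, the only CX3C ligand, was well above background on each of the 6 arrays. It read 12.25, 12.55 and 12.97 in esophagus and 12.25, 12.52 and 11.55 in stomach, so that the tissues overlapped. A log2 fold change of 0.48 ± 0.29 was not called (95% interval −0.19 to 1.15, adjusted p = 0.381). Its neighbours on chromosome 8, Ccl22 and Ccl17, whose probes lie 31.4 and 29.5 kb to either side, are ligands of Ccr4. Ccl22 was not well above background in either tissue, and Ccl17 only on the esophagus array of mouse 1 (6.35, against 4.88 and 4.99 in mice 2 and 4). Of 8 sheddases and peptidases that act on chemokines, 1 was called higher in esophagus and 2 in stomach (5.94 and 6.22% of all probes). Adam10, which cleaves Cx3cl1 and Cxcl16 from the membrane, was higher in stomach (11.80, 11.96 and 11.67 in esophagus, 12.74, 12.59 and 12.94 in stomach, log2 fold change −0.95 ± 0.16, adjusted p = 0.00722). Mmp7, a secreted metalloproteinase, was at least 3.94-fold higher in stomach (adjusted p = 0.0165). Dpp4, which trims the amino terminus of many chemokines, was higher in esophagus (log2 fold change 1.58 ± 0.29, adjusted p = 0.0106). The Dpp4 call was lost without the stomach array of mouse 1 or of mouse 2 (adjusted p up to 0.0561), and the Mmp7 call without either of these, without the esophagus array of mouse 2 or with the background offset of 50 (up to 0.0811). Scaling to the 75th percentile ended the Adam10 call (adjusted p = 0.238). Adam17, the other main sheddase, was not called (log2 fold change 0.15, 95% interval −0.38 to 0.68).

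Ccl2, the main monocyte attractant and ligand of Ccr2, was higher in esophagus on every array. Its probe, spotted 10 times, lies at chr11:81850650-81850709 (mm9, plus strand). The esophagus arrays read 11.38, 12.38 and 8.02 for mice 1, 2 and 4, and the stomach arrays 4.80, 4.77 and 4.81. No stomach array was well above background, and the esophagus arrays differed among themselves by up to 4.36 units, with mouse 4 the lowest. The log2 fold change was 5.80 ± 0.96 (adjusted p = 0.00631), at least 53.3-fold on the deposited values. Without the esophagus array of mouse 1, 2 or 4 it was 5.40 (adjusted p = 0.0195), 4.90 (0.0158) and 7.08 (9.16e-06), and with the offset of 50 it was 4.67 (0.0455), so that 3 of these values lie below the bound. Ccl7, the neighbouring gene with its probe 9.95 kb away and also a Ccr2 ligand, read 6.07, 6.30 and 4.77 in esophagus and 4.69, 4.71 and 4.90 in stomach. It was well above background on the esophagus arrays of mice 1 and 2 only, the arrays where Ccl2 was also higher, and it was not called (log2 fold change 0.95 ± 0.37, adjusted p = 0.165). The other 2 Ccr2 ligands, Ccl8 and Ccl12, were not well above background in either tissue. The macrophage marker Cd68 read 14.77, 12.94 and 11.80 in esophagus and 11.04, 11.22 and 12.36 in stomach (adjusted p = 0.211), and Csf1r, the receptor of macrophage growth factor, read 7.78 to 8.03 in esophagus and 7.97 to 8.35 in stomach (adjusted p = 0.612). Acta2, a smooth muscle marker, was well above background only on the esophagus array of mouse 2, at 6.69, the array on which Ccl2 was highest, whereas the other smooth muscle markers, Myh11 and Des, read 4.80 and 4.66 there and were not well above background on any of the 6 arrays. The part of these cell types in the Ccl2 values was not tested.

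Ccl6 and Ccl9 are rodent CC ligands of myeloid cells that signal through Ccr1. Their probes lie 13.7 kb apart on chromosome 11, and the genes were called in opposite directions. Ccl6 (chr11:83401997-83402056, mm9, minus strand) read 7.52, 7.69 and 7.12 in esophagus and 4.63, 4.99 and 4.78 in stomach. No stomach array was well above background. Ccl6 had a log2 fold change of 2.65 ± 0.19 (adjusted p = 8e-05), at least 6.26-fold on the deposited values. It was 1.73 with the offset of 50, below that bound, and 5.53 with the 75th percentile scaling. Ccl9 (chr11:83388223-83388282, mm9, minus strand) read 4.88, 5.02 and 4.83 in esophagus and 5.76, 5.36 and 5.61 in stomach. The tissues did not overlap, but the signal was close to background throughout. Ccl9 had a log2 fold change of −0.67 ± 0.16 (adjusted p = 0.0331), at least 1.51-fold on the deposited values, and ran from −2.63 (75th percentile scaling) to −0.39 (offset of 50). The call for Ccl9 was lost in 6 of 14 alternative analyses, including the one with the mouse as a replicate block (adjusted p = 0.0795). Among other CC ligands, the inflammatory ligands Ccl3 and Ccl4 and the eosinophil attractants Ccl11, Ccl24 and Ccl26 were not well above background in either tissue. Ccl5, a T cell and monocyte attractant, was well above background on the esophagus array of mouse 1 only (5.98, against 4.49 and 4.71 in mice 2 and 4 and 5.25 to 5.31 in stomach).

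**Figure D3:**
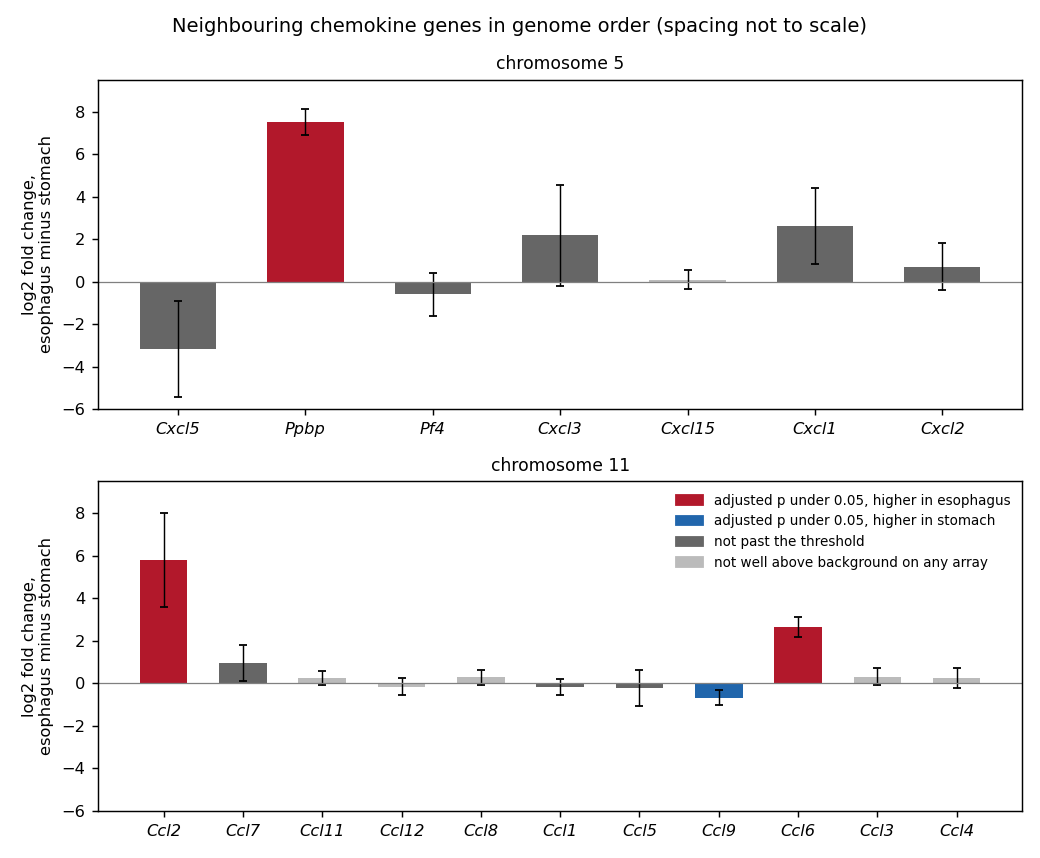
Log2 fold change (y axis, esophagus minus stomach) of neighbouring chemokine genes on chromosomes 5 and 11, in genome order by their mm9 probe positions with spacing not to scale. Bars are the estimates, error bars their 95% confidence intervals, and colours the calls. On chromosome 5, Ppbp (7.5) lies next to Cxcl5 (−3.17), and on chromosome 11, Ccl6 (2.65) lies next to Ccl9 (−0.67).

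The CXC ligands with an ELR motif attract neutrophils through Cxcr2. None of the 5 was called, and the esophagus arrays of 3 of them spread over 3.42 to 4.54 units. Cxcl1 (chr5:91321845-91321904, mm9, plus strand) read 10.37, 9.57 and 6.95 in esophagus and 6.35, 6.58 and 6.07 in stomach. Each esophagus array was above each stomach array, and the log2 fold change was 2.63 ± 0.76 (95% interval 0.85 to 4.41, adjusted p = 0.0681). With the mouse as a replicate block, the adjusted p was 0.0383, and without the esophagus array of mouse 1, 2 or 4 the log2 fold change was 1.93 (adjusted p = 0.131), 2.33 (0.191) and 3.64 (0.000205). Cxcl3 (chr5:91216694-91216753, mm9, plus strand) read 10.43, 6.61 and 5.89 in esophagus and 5.40, 5.39 and 5.60 in stomach. The tissues did not overlap, and mouse 1 stood far above the other esophagus arrays. The log2 fold change was 2.18 ± 1.03 (adjusted p = 0.253), and 0.79 without the esophagus array of mouse 1 (adjusted p = 0.0914) or 3.06 without that of mouse 4 (0.0969). Cxcl2 was well above background on the esophagus array of mouse 1 only, at 6.58, against 4.85 and 4.56 in mice 2 and 4 and 4.56 to 4.67 in stomach. Cxcl15, the lung ligand, was not well above background in either tissue.

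Cxcl5 (chr5:91190490-91190549, mm9, plus strand) differed from its relatives in that its stomach arrays were high, at 11.04, 11.55 and 10.17. The esophagus arrays read 10.24, 6.96 and 6.04, and mouse 1 lay within the stomach range. The log2 fold change was −3.17 ± 0.97 (95% interval −5.43 to −0.91, adjusted p = 0.0816), and the call was made with the mouse as a replicate block (adjusted p = 0.0457) and without the esophagus array of mouse 1 (log2 fold change −4.42, adjusted p = 0.00078). Without the esophagus array of mouse 4 it was −2.32 (adjusted p = 0.171). Ppbp, whose product is processed to the Cxcr2 ligand CXCL7 and whose name keeps it outside the Cxcl series, lies next to Cxcl5 with its probe 8.42 kb away. It read 12.87, 12.21 and 11.80 in esophagus and 4.83, 4.92 and 4.63 in stomach. No stomach array was well above background, and the log2 fold change was 7.5 ± 0.27 (adjusted p = 1.49e-06), at least 176-fold. Pf4, the next gene and like Ppbp a product of platelets, was not called (log2 fold change −0.59 ± 0.44, adjusted p = 0.499).

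Cxcr2 itself was called in the same direction as Ppbp. It read 7.41, 7.08 and 7.38 in esophagus and 4.95, 5.08 and 4.87 in stomach (log2 fold change 2.32 ± 0.16, adjusted p = 5.33e-05), at least 5-fold. Of 24 chemokine receptors and atypical receptors, 2 were higher in esophagus (5.94% of all probes were), none was higher in stomach (6.22%), and 16 were not well above background in either tissue. The second was Ccr9, the receptor of Ccl25, at 6.18, 6.26 and 6.31 in esophagus and 5.26, 5.03 and 5.51 in stomach (log2 fold change 0.99 ± 0.17, adjusted p = 0.00691). The receptors of the called CC ligands, Ccr1 and Ccr2, were not well above background in either tissue, nor was Cxcr3, the receptor of Cxcl9, Cxcl10 and Cxcl11, nor Cx3cr1. At an unadjusted p under 0.05 in limma and at least a 1.5-fold change, 1 of the 24 (Gpr35) was higher in stomach, against 8.85% of all probes.

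**Figure D4:**
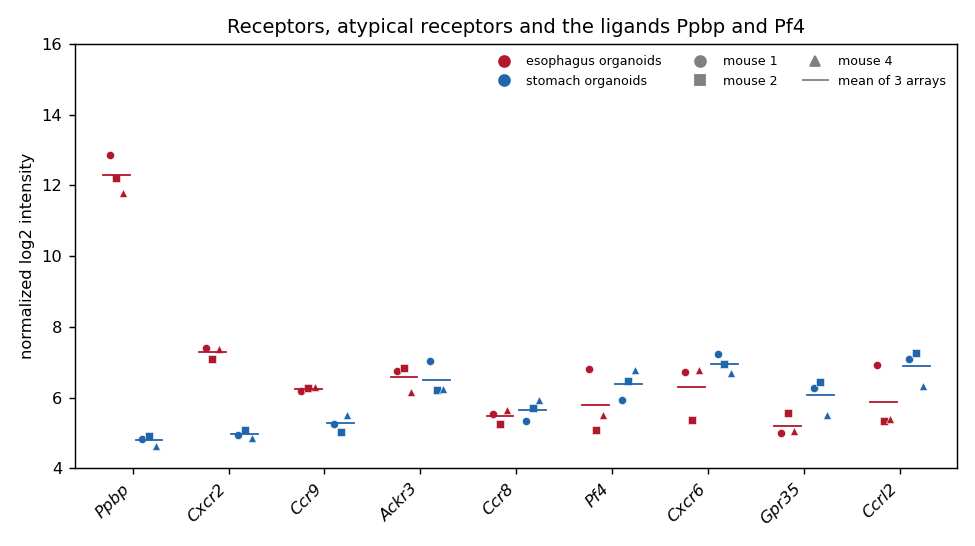
Normalized log2 intensity (y axis) of the receptors, atypical receptors and platelet-type ligands well above background throughout at least 1 tissue, with 1 point per array and a line at the mean of 3 arrays. Ppbp, Cxcr2 and Ccr9 separate the tissues on every array, while the tissues overlap for Ackr3, Ccr8, Pf4, Cxcr6, Gpr35 and Ccrl2.

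The spread among the esophagus arrays ran in 1 direction for many ligands. Of the 12 ligands well above background on all esophagus arrays, 8 were lowest in mouse 4, against 29% of 22802 probes that were well above background there, and 7 were highest in mouse 1, against 33.5%. The range over the 3 arrays was over 1 unit for 6 of the 12 (Cxcl3 at 4.54, Ccl2 at 4.36, Cxcl5 at 4.2, Cxcl1 at 3.42, Cxcl16 at 2.40 and Ccl19 at 1.66), against 19% of probes. Ccl25, Ccl27a and Cxcl11 varied by 0.23 units or less. In stomach, 2 of 10 ligands (Cxcl5 at 1.38 and Cxcl17 at 1.25) ranged over more than 1 unit, against 11.7% of 24436 probes, and 8 of 10 were lowest in mouse 4, against 39.3% of probes. The esophagus array of mouse 4 was the only one on slide 2, and the stomach culture of mouse 4 the only one harvested on day 7. The macrophage marker Cd68 was likewise highest in mouse 1 and lowest in mouse 4 in esophagus, at 14.77, 12.94 and 11.80 in mice 1, 2 and 4, while the other leukocyte markers well above background there (Cd3e, Ly6g, Csf1r, Itgam and Cd14) were lowest in mouse 2. The part of other cell types in this spread was not tested, and the parts of slide, culture and mouse cannot be told apart.

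All genes of a list of 16 NF-kB subunits and feedback genes were well above background on each of the 6 arrays. In esophagus, 11 of the 16 were lowest in mouse 4 (68.8%, against 29% of all probes well above background there). Mouse 1 was highest for 9 (56.2%, against 33.5%), and 7 ranged over more than 1 unit (43.8%, against 19%). In stomach, 4 of the 16 were lowest in mouse 4 (39.3% of all probes were), 8 were highest there (50%, against 43.4% of all probes), and 2 ranged over more than 1 unit (12.5%, against 11.7%). No test compared the list with the ligands. Tnfaip3, an NF-kB target that limits the pathway, read 10.91, 10.54 and 8.0 in esophagus and 8.73, 8.60 and 8.88 in stomach, and was not called (adjusted p = 0.407). Nfkbia, the inhibitor that NF-kB induces, read 15.33, 14.90 and 13.34 in esophagus and 11.96, 12.01 and 12.53 in stomach. Its arrays did not overlap, and it was called higher in esophagus (log2 fold change 2.36 ± 0.47, adjusted p = 0.0156). In all, 3 of the 16 were higher in esophagus (5.94% of all probes were) and 1 in stomach (6.22%). In stomach, 2 were higher with the mouse as a replicate block (5.69% of all probes) or without the stomach array of mouse 4 (7.03%). The call for Nfkbia was lost without the stomach array of mouse 1, the stomach array of mouse 2 or the esophagus array of mouse 2 (adjusted p up to 0.0759), and that for Nfkb1 with the 75th percentile scaling (0.0655). The others were the subunit Nfkb1 (log2 fold change 0.92, adjusted p = 0.00887) and the adhesion molecule Icam1 (1.49, adjusted p = 0.00412) in esophagus, and Tnip1, an inhibitor of the pathway (−1.74, adjusted p = 0.00577), in stomach. The subunit Rela, at 12.98 to 13.67 in esophagus and 12.95 to 13.26 in stomach, was not called (adjusted p = 0.757).

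**Figure D5:**
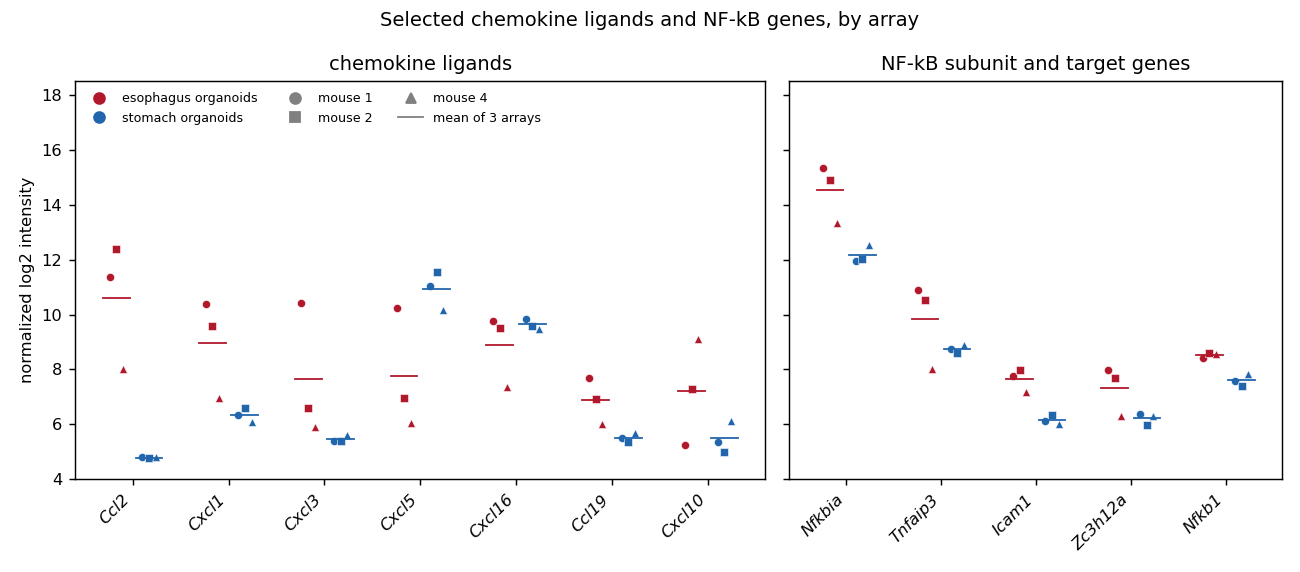
Normalized log2 intensity (y axis) of selected ligands (left) and genes of the NF-kB list (right), chosen after their values were seen, with 1 point per array, a marker shape per mouse and a line at the mean of 3 arrays. In esophagus, Ccl2, Cxcl1, Cxcl3, Cxcl5, Cxcl16, Ccl19, Nfkbia, Tnfaip3, Icam1 and Zc3h12a were lowest in mouse 4, while Cxcl10 was highest there at 9.12. Nfkb1 was lowest in mouse 1 (8.41, 8.61 and 8.57 in mice 1, 2 and 4).

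The 21 inducing cytokines and receptors gave 4 genes higher in esophagus and 6 in stomach, where 5.94 and 6.22% of all probes were called. Over 13 distinct fits of single probes, the calls for Csf1, Ifngr1, Il17re and Tslp were each lost in 2 to 7. All 4 were lost without the stomach array of mouse 2. Without that array, 2 of the 21 genes were called higher in esophagus and 4 in stomach (3.24 and 4.22% of all probes). The Il17re call was also lost with the mouse as a replicate block. Tnf read 9.01, 6.16 and 4.86 in esophagus and 6.70 to 7.13 in stomach, with the esophagus arrays in the same order as for Cxcl3 and Cxcl5 (adjusted p = 0.895). Tnfrsf1a, the main receptor of tumour necrosis factor on epithelium, was higher in esophagus (log2 fold change 1.04 ± 0.15, adjusted p = 0.00329), whereas Tnfrsf1b, its other receptor, was at least 5.07-fold higher in stomach (adjusted p = 0.000138). Tslp, an epithelial cytokine that acts on dendritic cells, was at least 4.18-fold higher in esophagus (adjusted p = 0.0126). Il17rc, a subunit of the interleukin-17 receptor, was also higher in esophagus (log2 fold change 1.5 ± 0.26, adjusted p = 0.00832). Il10rb (log2 fold change −1.49, adjusted p = 0.000822), Ifngr1 (−1.55, adjusted p = 0.0201) and Ifngr2 (−1.49, adjusted p = 0.0076), all cytokine receptor subunits, were higher in stomach, and so were the interleukin-17 receptor family gene Il17re (−0.90, adjusted p = 0.0277) and the cytokine Ltb, at least 2.51-fold (adjusted p = 0.00662). The growth factor Csf1 was higher in esophagus (log2 fold change 1.19, adjusted p = 0.0453). Interleukins Il17a, Il17c, Il17f and Il6 were not well above background in either tissue.

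Of the interferon-induced ligands, Cxcl9 and Cxcl10 were not called. Cxcl10 read 5.25, 7.30 and 9.12 in esophagus for mice 1, 2 and 4, the reverse of the order seen for Cxcl1, and 5.36, 4.99 and 6.14 in stomach. The tissues overlapped, and the log2 fold change was 1.73 ± 0.85 (95% interval −0.25 to 3.71, adjusted p = 0.278). The second Cxcl10 probe was not well above background in either tissue (4.65, 4.99 and 5.46 in esophagus), so that it gives no order of the arrays. Cxcl9 was not well above background in either tissue, and Ifng only on the esophagus array of mouse 1, at 5.39. Of 8 interferon-gamma response regulators, Gbp2 (log2 fold change 0.94, adjusted p = 0.0112) and Ciita (0.80, adjusted p = 0.00758) were higher in esophagus and Irf9 (−1.37, adjusted p = 0.0458) in stomach, where 5.94 and 6.22% of all probes were called. The Irf9 call was lost in 7 of 13 fits, among them those that left out any 1 array other than the stomach array of mouse 4 (adjusted p up to 0.174), and the Gbp2 call was lost without the stomach array of mouse 2 (0.057).

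Cxcl11 was called higher in stomach, but what its probe measures is uncertain. The probe (chr5:92788567-92788626, mm9, minus strand) read 15.86, 15.78 and 15.89 in esophagus and 16.68, 16.72 and 16.18 in stomach. The tissues did not overlap, with a log2 fold change of −0.68 ± 0.18 (adjusted p = 0.0494), and the call was lost in 10 of 14 alternative analyses, including the one with the mouse as a replicate block (adjusted p = 0.0873). The second Cxcl11 probe read 9.83, 9.59 and 9.77 in esophagus and 10.68, 10.98 and 9.61 in stomach, with overlap and no call (log2 fold change −0.69 ± 0.33, adjusted p = 0.259). RefSeq lists mouse Cxcl11 as a transcribed pseudogene and the other 34 ligands as protein-coding. A 30-base stretch of the brighter probe, from base 20 to base 49, is shown because 16 of its bases, in capitals, also stand in probes of other genes and belong to the widespread mouse repeat known as B1.
Cxcl11 probe: agccaggGCTACACAGAGAAACCctatctt
Probes of 19 other gene names shared a 16-base word with this probe on either strand, and only 0.673% of all probes shared a word with as many. Among the other 34 ligands the count was 2 at most, and 29 of the 35 shared none. Of those 19 probes, 5 were called higher in stomach (6.22% of all probes were) and none higher in esophagus (5.94%). Their log2 fold changes ran from −1.55 to 0.49 with a median of −0.32, against 0.02 over all probes. A lower mean in esophagus was seen for 15 of the 19, and the share of all probes with a lower mean there was not computed. How far repeat-bearing RNA contributes to the Cxcl11 signal was not tested. Without Cxcl11 the number of called ligands was 5.

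Ccl19, a ligand of Ccr7 that guides dendritic cells and T cells, raised a similar question. Its brightest probe read 7.69, 6.91 and 6.03 in esophagus and 5.49, 5.36 and 5.68 in stomach. All esophagus arrays were above all stomach arrays, and the log2 fold change was 1.36 ± 0.38 (95% interval 0.49 to 2.23, adjusted p = 0.0564). Without the esophagus array of mouse 1, 2 or 4 it was 0.96 (adjusted p = 0.0765), 1.34 (0.142) and 1.79 (0.00456). With the mouse as a replicate block, the adjusted p was 0.0688. The other 2 Ccl19 probes were not called, with log2 fold changes of 0.39 (adjusted p = 0.234, no array well above background) and −0.07 (adjusted p = 0.855). The letters of the brightest probe lie wholly upstream of the RefSeq start site, from −131 to −72 in the GRCm38.p6 window, and those of a second probe span the start, from −27 to 33. The beginning of the brightest probe (bases 1 to 30) is shown to mark the place.
Ccl19 probe: aagctcacttgcacttggctcctgaacccc
The arrays' mm9 coordinates place these probes on the plus strand of chromosome 4, and the RefSeq window is on the minus strand. Ccl19 and Ccl27a are known to belong to a region of near-identical gene copies on chromosome 4, and from which copy their signals come was not tested.

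Ccl27a, the keratinocyte ligand of Ccr10, read 9.12, 8.93 and 9.16 in esophagus and 8.69, 9.0 and 8.44 in stomach by its brightest probe, with overlap and no call (log2 fold change 0.36 ± 0.18, 95% interval −0.06 to 0.78, adjusted p = 0.289). All 4 of its probes had a higher mean in esophagus, with log2 fold changes of 0.15 to 0.66, and 1 of them was called (6.50, 6.32 and 6.28 against 5.66, 5.96 and 5.49, log2 fold change 0.66 ± 0.17, adjusted p = 0.045). Ccl25, known from thymus and small intestine, read 10.01, 9.81 and 9.84 in esophagus and 9.51, 9.69 and 9.72 in stomach. The tissues did not overlap, but the log2 fold change was only 0.25 ± 0.15 (95% interval −0.09 to 0.59, adjusted p = 0.366), and none of its 4 probes was called. Ccl28, a mucosal ligand of Ccr10 and Ccr3, read 5.56, 4.76 and 4.88 in esophagus and 5.53, 5.89 and 5.48 in stomach. It was well above background on all 3 stomach arrays and on 1 esophagus array, and was not called (log2 fold change −0.56 ± 0.24, adjusted p = 0.207). Ccr10 was not well above background in either tissue.

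The 14 ligands not well above background in either tissue were Ccl3, Ccl4, Ccl8, Ccl11, Ccl12, Ccl20, Ccl22, Ccl24, Ccl26, Cxcl9, Cxcl12, Cxcl13, Cxcl15 and Xcl1. Their values ran from 4.15 to 5.50 and their log2 fold changes from −0.32 to 0.32. Ccl20, the epithelial ligand of Ccr6, was among them. Ccl1, the ligand of Ccr8, was well above background on 2 stomach arrays and no esophagus array, with a log2 fold change of −0.17 ± 0.17 (adjusted p = 0.623). For these ligands a difference was not detectable at this signal.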

How the data were processed

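Total RNA was labelled with Cy3 and hybridized to 1-colour Agilent 8x60K mouse arrays. The authors extracted spot intensity values with Agilent Feature Extraction (11.5.1.1 in the file headers, probe positions in mm9) and deposited log2 values. These were rebuilt from the deposited median intensity and background columns by normexp correction (offset 15) and quantile normalization, with outlier-marked spots missing (2029 cells), to a median absolute difference of 0.004332 log2 units and at most 0.07258. Control spots were left out, and spots of 1 probe were averaged. All 55681 probes were fitted with limma 3.58.1 (R 4.3.3, lmFit and eBayes, tissue as the only term, two-sided) and adjusted by Benjamini-Hochberg. Members and lists were chosen with earlier results of these data known. Named with values were the called ligands, those well above background throughout at least 1 tissue, and called list genes. Other genes given with values (ligands above background on some arrays only, and uncalled list genes) were chosen after their values were seen. A probe was well above background on an array when at least 50% of its spots were flagged so by the scanner software. The fitting script was tested on simulated data. Same-numbered cultures were read as coming from the same mouse because the labels name the mouse by number, which no other source states, and their deviations from the group means correlated at 0.025, 0.0119 and −0.0079 across probes, within the range of different mice (−0.0726 to 0.0405). The methods state a p and fold threshold without naming an adjustment, so that rule was an alternative. Promoters came from RefSeq (GRCm38.p6) and probe letters from the scanner files. No annotation of mm9 was used, so exon or UTR positions of probes are not given. Motifs and probe words were searched with Python 3.11.15. A few genes are not reported here.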

Additional observations from a re-analysis of the deposited data

How the results depend on the processing

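None of the 15 ligands well above background throughout at least 1 tissue reversed direction under an alternative, and the directions of the other 20 were not compared across alternatives. The main analysis called 3 ligands higher in esophagus (5.94% of all probes). This number was 5 when only probes well above background were fitted (13.1% of those), 6 with the slide as a block, with the arrays of slide 1 alone or without the esophagus array of mouse 4 (5.56%), and 6 at an unadjusted p under 0.05 with at least a 1.5-fold change (9.28%). The number higher in stomach was 3 (6.22%), and 1 with the slide as a block or the arrays of slide 1 alone (5.74%). Leaving out 1 array at a time gave 3 to 6 higher in esophagus (3.22 to 6.29% of all probes) and 1 to 4 higher in stomach (4.13 to 7.03%). The number in stomach was 1 without the stomach array of mouse 1 (4.13%), the esophagus array of mouse 2 (4.65%) or the esophagus array of mouse 4 (5.74%). With the mouse as a replicate block, 4 were higher in esophagus (5.36% of all probes) and 2 in stomach (5.69%). The slide block, slide 1 alone and leaving out the esophagus array of mouse 4 are the same fit, since slide 2 held that array alone, and are counted once. Ccl9 then lost its call in 6 and Cxcl11 in 10 of 14 alternatives, Ccl19 gained one in 4, Cxcl1 in 3, Cxcl5 in 3 and Ccl28 in 1 (without the esophagus array of mouse 1, adjusted p = 0.0379), and the cause was not tested. Scaling to the 75th percentile moved the median log2 fold change of all probes from 0.0235 to 0.1912, and every called ligand kept its direction relative to it. Only 3 arrays per tissue limit the precision, and 20 of the 35 ligands lacked a tissue with all arrays well above background. Over all alternatives, the NF-kB genes numbered 2 to 5 higher in esophagus (3 in the main analysis) and 1 to 2 in stomach (1). Without the esophagus array of mouse 4, 5 were higher in esophagus (5.56% of all probes). In the same order, the inducing cytokines numbered 2 to 4 (4) and 4 to 7 (6), and the interferon-gamma regulators 1 to 3 (2) and 0 to 3 (1). The sheddases numbered 0 to 1 (1) and 1 to 2 (2), and the receptors 1 to 2 (2) and 0 to 1 (0). Across these alternatives, 3.22 to 13.1% of the probes or genes fitted were called higher in esophagus and 4.13 to 13.7% higher in stomach.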
